A study of Mus musculus with 36 samples.

Results

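Fos, Fosb, Jun, Junb, Egr1, Atf3, Klf6, Ier2, Nr4a1 and Dusp1 are immediate early genes, named here because they also serve as markers of stress during tissue dissociation. They were picked by symbol, and all 10 were among the 52636 genes of the count table and among the 15330 genes with enough counts to be tested. Immediate early genes are transcribed within minutes of a stimulus, without new protein synthesis, when kinase cascades act on factors that already sit at their promoters, such as the serum response factor with its ELK partners and CREB. Their products are mostly transcription factors, of which the FOS, JUN and ATF proteins pair to form AP-1, together with inhibitors such as the phosphatase DUSP1 that shut the signal off. Growth factors, depolarization and injury induce them in many cells, enzymatic digestion of a tissue does so too, and in Schwann cells JUN is known for driving the repair state after nerve damage.

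Their RNA was measured in cells sorted by FACS from skeletal muscle of mice with 2 transgenes, S100β-GFP and NG2-dsRed. GFP is driven by regulatory sequence of S100b and dsRed by that of Cspg4 (NG2). Double-labeled NG2DsRed+/S100GFP+ cells, which the study takes as perisynaptic Schwann cells (PSCs), gave 9 libraries, single-labeled S100GFP+ cells 8 and single-labeled NG2DsRed+ cells 10, out of 12 libraries per cell type in the labels. Every replicate was the cells of a single mouse, from diaphragm, pectoralis, forelimb and hindlimb muscle pooled, at P15 to P21 by the study's methods, while the upper age in the labels runs from 21 to 46 days with sample number. No animal was treated, and mice of all groups carried both transgenes. All groups also went through the same collagenase digestion, trituration, density gradient and sort, so that RNA present in the muscle and RNA made during the isolation cannot be told apart. The study removed failed samples and states 7 S100GFP+ replicates, and which of the 8 it left out is not known here.

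Libraries held between 5221655 and 9592875 counts on genes. Cspg4, the gene of the dsRed driver, was at 503 to 965 CPM (normalized counts per 1000000) in PSCs, 34.5 to 148 in S100GFP+ and 487 to 890 in NG2DsRed+ cells, and S100b at 57.0 to 566, 9.88 to 40.9 and 1.23 to 17.8 CPM. The 7 Schwann lineage markers summed to 2004 to 2930 CPM in PSCs but to 61.0 to 415 in S100GFP+ cells, against 34.0 to 78.9 in NG2DsRed+ cells. S100GFP+ libraries, called Schwann cells by the study, instead held 23952 to 52406 CPM on 7 fibroblast markers and 1142 to 11876 on 7 macrophage and leukocyte markers, each of which was higher there than in PSCs. Their 7 myelin markers summed to 1514 to 3648 CPM, close to the 2527 to 3437 of PSCs, and these cells are called by their gate below. NG2DsRed+ cells carried pericyte and smooth muscle markers (7274 to 15774 CPM over 9 genes), fibroblast markers (2831 to 24690 CPM, against 1529 to 4631 in PSCs) and endothelial markers (1365 to 3177 over 7 genes). No gene of these lists was at 0 throughout a cell type. In such bulk samples fewer cells of a type and less RNA per cell cannot be told apart. PSC library 18 stood apart, with 14616 genes detected against 19669 to 38568 in all others, and its values are given separately. Results without S100GFP+ libraries 14, 17 and 22 are given as well. These had 25890, 29103 and 38568 genes detected, against 19669 to 23292 in the other S100GFP+ libraries.

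Before the values, the sequence upstream of 4 of the genes is shown, since Fos and Dusp1 varied together most closely among PSC libraries and Jun and Junb differed in opposite directions between PSCs and S100GFP+ cells. Whether motifs in these sequences bear on either pattern was not tested. The sequences are the 250 bases before the RefSeq start on GRCm38.p6, read 5′ to 3′ on the strand of the gene. Capitals mark TGACG on either strand, the core of the cAMP response element to which CREB and ATF proteins bind, and TATAAA, the TATA box, on the strand of the gene.
Fos, chr12:85473640-85473889, plus strand: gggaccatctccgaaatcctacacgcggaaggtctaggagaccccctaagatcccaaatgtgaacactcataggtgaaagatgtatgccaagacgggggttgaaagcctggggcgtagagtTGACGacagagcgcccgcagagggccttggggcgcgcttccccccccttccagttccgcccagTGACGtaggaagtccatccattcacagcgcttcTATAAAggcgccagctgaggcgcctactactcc
Dusp1, chr17:26508473-26508722, minus strand: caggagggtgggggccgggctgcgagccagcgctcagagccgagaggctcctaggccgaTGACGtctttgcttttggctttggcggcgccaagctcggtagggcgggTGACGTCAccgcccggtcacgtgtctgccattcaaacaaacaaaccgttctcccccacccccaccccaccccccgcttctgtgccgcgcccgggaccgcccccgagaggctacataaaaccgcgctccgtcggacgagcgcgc
Jun, chr4:95052223-95052472, minus strand: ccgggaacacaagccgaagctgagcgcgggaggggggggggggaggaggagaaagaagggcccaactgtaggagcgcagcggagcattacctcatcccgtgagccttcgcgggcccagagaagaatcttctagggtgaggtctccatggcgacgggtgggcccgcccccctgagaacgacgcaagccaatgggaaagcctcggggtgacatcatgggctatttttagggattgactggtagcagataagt
Junb, chr8:84978749-84978998, minus strand: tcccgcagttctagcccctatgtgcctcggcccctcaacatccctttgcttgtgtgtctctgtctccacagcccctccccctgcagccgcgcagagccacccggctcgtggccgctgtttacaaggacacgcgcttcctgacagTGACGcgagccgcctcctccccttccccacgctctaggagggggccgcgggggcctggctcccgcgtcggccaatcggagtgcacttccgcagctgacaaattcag

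Fos held 2 copies of TGACG and the only TATAAA among the genes. Dusp1 held 3 copies, of which a pair overlap in TGACGTCA, the full palindromic element. Junb held 1 copy of TGACG and Jun none. RefSeq promoters were at hand for 8 of the 10 genes, Ier2 and Egr1 being the others, and 6 of the 8 (Fos, Fosb, Junb, Atf3, Nr4a1 and Dusp1) held TGACG on either strand, against 17.8% of 32851 RefSeq promoters of the same length. TGACGTCA, searched on both strands and containing the shorter motif, was in 1 of the 8 and in 1.55% of all promoters. GGGCGG, the GC box, was found on either strand in 7 of the 8, Junb being without it, and in 32.7% of all promoters, while TATAAA was in 7.59%. Neither TGANTCA, the AP-1 site (6.75% of all promoters), nor the CArG box, the serum response factor's element (1.47%), lay in any of the 8 windows, and the serum response element of Fos is known to lie further upstream. Only exact matches to these letters were counted, so that close variants were not searched. The Jun window holds such a variant, TGACATCA, which differs from TGACGTCA in a single base.

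PSCs held less RNA of 7 of these genes than NG2DsRed+ cells and of 5 than S100GFP+ cells. Against NG2DsRed+ cells, Fosb, Junb, Egr1, Atf3, Ier2, Nr4a1 and Dusp1 were lower and none was higher, which is 7 of 10 where 23.1% of all tested genes were lower and 20.9% higher. Against S100GFP+ cells, Fosb, Junb, Atf3, Klf6 and Dusp1 were lower (5 of 10, with 24.1% of all genes lower), and Jun was higher (1 of 10, with 22.9% of all genes higher). Between the single-labeled sorts, S100GFP+ cells had less Jun, Ier2 and Nr4a1 than NG2DsRed+ cells (3 of 10, with 15.2% of all genes lower) and more Klf6 (1 of 10, with 18.1% higher). The median log2 fold change over the 10 genes was −0.63 for PSCs minus NG2DsRed+ cells, −0.42 for PSCs minus S100GFP+ cells and −0.17 for S100GFP+ minus NG2DsRed+ cells, and over all tested genes it was 0.02, 0.04 and −0.02. Libraries were also scaled by their totals without Lars2, Gm23935 and Gm15564, which took 3.64% to 40.0% of the counts, in place of TMM. The median of all tested genes then moved to 0.34 for PSCs minus S100GFP+ cells. There 4 of the 10 genes were lower and 3 higher, where 2784 of all 15330 tested genes were lower and 5354 higher. Against NG2DsRed+ cells 5 of the 10 were lower in PSCs, where 3066 of the 15330 tested genes were lower. A call means an adjusted p under 0.05 in edgeR's quasi-likelihood test over all tested genes. The 3 comparisons share their libraries in pairs and are not independent of each other.

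**Figure D1:**
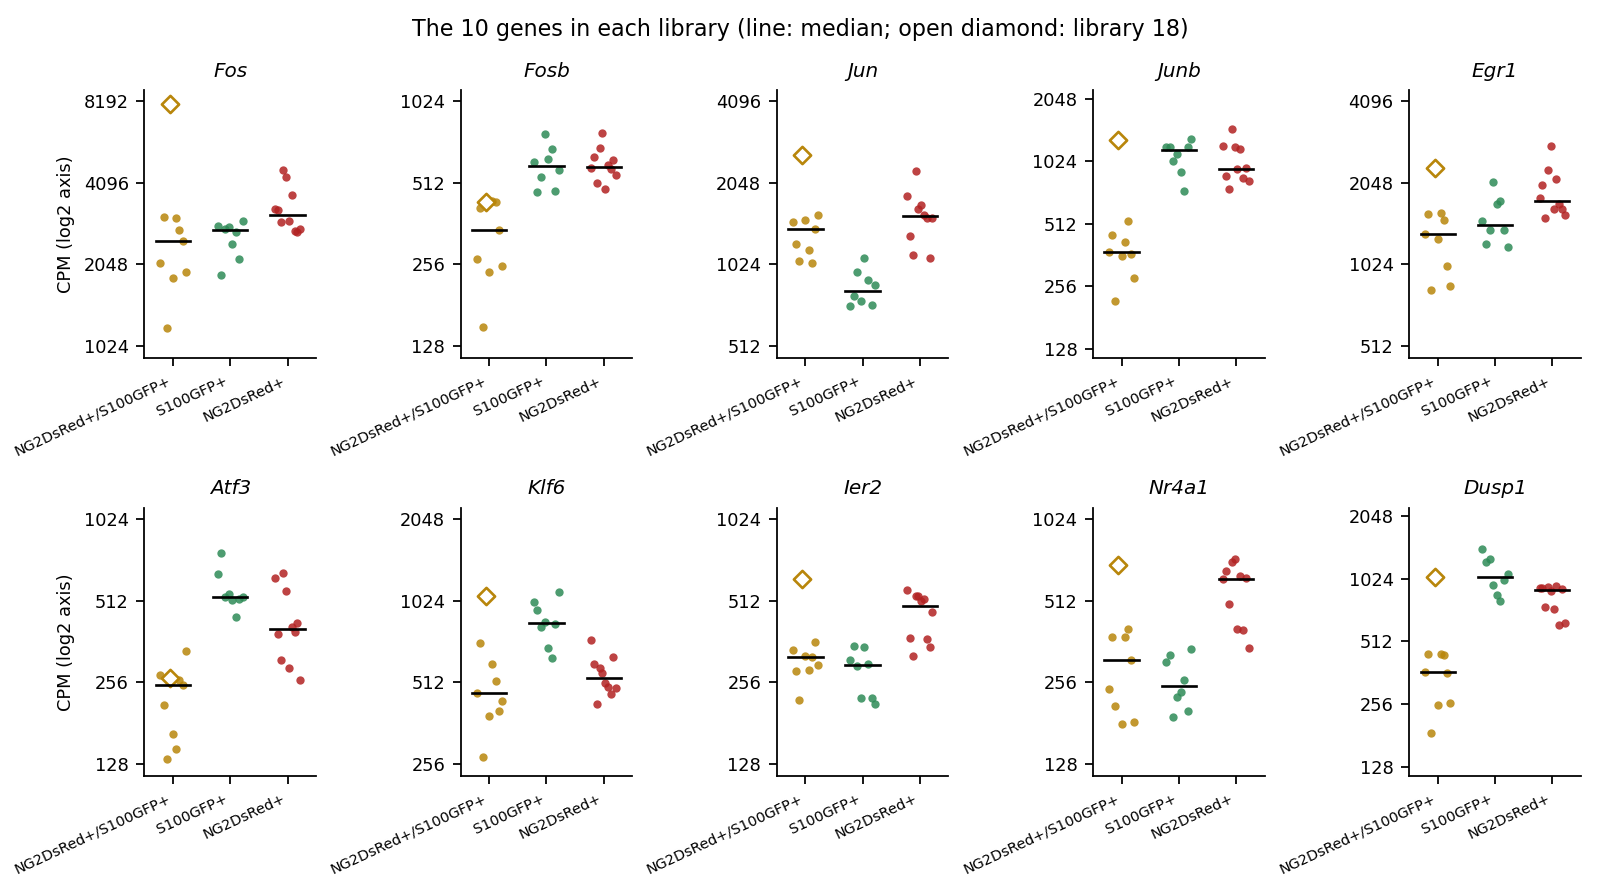
CPM on a log2 axis of each of the 10 genes in each library, with 9 NG2DsRed+/S100GFP+ (gold), 8 S100GFP+ (green) and 10 NG2DsRed+ (red) libraries, the median as a line and library 18 as an open diamond. Library 18 lies above the other double-labeled libraries for Fos (7991 CPM) and Junb (1293 CPM), but not for Fosb and Atf3, whose double-labeled values all lie below those of S100GFP+ cells.

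Fos, whose protein is the classical partner of JUN in AP-1, had the highest level per exon length of the 10 genes in every cell type. Its lowest, median and highest CPM were 1197, 2503 and 7991 in PSCs, 1872, 2734 and 2975 in S100GFP+ cells and 2694, 3112 and 4553 in NG2DsRed+ cells. The ranges overlap in each comparison, and the highest PSC value is library 18, the next being 3075 CPM. Fos passed the threshold in no comparison, with a log2 fold change of 0.19 (SE 0.26, edgeR adjusted p = 0.574) for PSCs minus S100GFP+ cells and −0.18 (SE 0.24, adjusted p = 0.58) for PSCs minus NG2DsRed+ cells. Library 18 moved these values: without it, Fos was lower in PSCs than in NG2DsRed+ cells by edgeR (log2 fold change −0.46, SE 0.17, adjusted p = 0.0266), and the sign against S100GFP+ cells turned (−0.12, SE 0.18, adjusted p = 0.59). For S100GFP+ minus NG2DsRed+ cells the value was −0.37 (SE 0.25, edgeR adjusted p = 0.282). With all libraries kept, limma-voom with sample quality weights called Fos lower than in NG2DsRed+ cells both in PSCs (−0.61, adjusted p = 0.00197) and in S100GFP+ cells (−0.39, adjusted p = 0.0362).

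Fosb, a FOS family member, separated PSCs from both other sorts without overlap. It was at 150.0, 344 and 438 CPM (lowest, median, highest) in PSCs, at 474, 592 and 777 in S100GFP+ cells and at 485, 588 and 783 in NG2DsRed+ cells. All 9 PSC libraries, library 18 included, lay below every library of the other sorts. Of all tested genes, 10.3% lay without overlap below S100GFP+ cells in PSCs and 8.83% below NG2DsRed+ cells. The log2 fold change was −0.85 (SE 0.18, edgeR adjusted p = 0.000259) against S100GFP+ cells and −0.87 (SE 0.17, adjusted p = 0.000123) against NG2DsRed+ cells, a 1.80-fold and 1.82-fold lower level. Between the single-labeled sorts Fosb differed by −0.02 on the log2 scale (SE 0.17, edgeR adjusted p = 0.945).

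Jun was the only one of the 10 genes to pass the threshold as higher in PSCs than in another sort, apart from Ier2 and Nr4a1 against S100GFP+ cells under settings that take the 3 dominant genes into account. Its lowest, median and highest CPM were 1040.4, 1387 and 2587 in PSCs, 718, 821 and 1081 in S100GFP+ cells and 1079, 1540.1 and 2260 in NG2DsRed+ cells. S100GFP+ cells were low: 7 of 9 PSC libraries exceeded the highest S100GFP+ library, and 7 of 8 S100GFP+ libraries lay below the lowest NG2DsRed+ library. Jun was 1.70-fold higher in PSCs than in S100GFP+ cells (log2 fold change 0.77, SE 0.18, edgeR adjusted p = 0.000953). It was 1.84-fold lower in S100GFP+ than in NG2DsRed+ cells (−0.88, SE 0.18, edgeR adjusted p = 0.000274), and PSCs minus NG2DsRed+ cells gave −0.11 (SE 0.17, adjusted p = 0.635).

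Junb, whose protein is a weaker AP-1 activator than JUN and can counteract it, went the other way. It was at 218, 373 and 1293 CPM in PSCs, at 736, 1158 and 1309 in S100GFP+ cells and at 754, 945 and 1470.4 in NG2DsRed+ cells. Other than library 18, PSC libraries reached at most 531 CPM, below every library of the other sorts, whereas library 18 lay among them. Junb was 2.28-fold lower in PSCs than in S100GFP+ cells (log2 fold change −1.19, SE 0.25, edgeR adjusted p = 0.00023) and 2.14-fold lower than in NG2DsRed+ cells (−1.10, SE 0.24, edgeR adjusted p = 0.000362). Without library 18 these log2 fold changes were −1.49 and −1.37. Prdx2, a peroxiredoxin gene on the opposite strand whose exons overlap those of Junb, was higher in PSCs (log2 fold change 0.52 and 0.87, edgeR adjusted p = 0.009 and 2.4e-05), and it is not known whether reads were counted by strand. Junos, the antisense neighbour of Jun, had 421 counts over all libraries.

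Within each library, the ratio of Junb to Jun in CPM per kb of exon differed between the sorts. It ran from 0.25 to 0.707 in PSCs, with a median of 0.368, from 0.745 to 1.22 in NG2DsRed+ cells, with a median of 0.917, and from 1.13 to 2.33 in S100GFP+ cells, with a median of 2.09. The PSC range lies below both others, and library 18, at 0.693, lies inside it. Dusp1 to Fos was the steadiest ratio in PSCs, at 0.093 to 0.125, against 0.146 to 0.242 in NG2DsRed+ cells and 0.212 to 0.468 in S100GFP+ cells, and PSC values again lay below all others. Fosb to Fos was at 0.0204 to 0.06 in PSCs, with library 18 the lowest, at 0.057 to 0.0867 in NG2DsRed+ cells and at 0.0726 to 0.104 in S100GFP+ cells. Jun to Fos overlapped between the sorts, at 0.239 to 0.651, 0.279 to 0.423 and 0.187 to 0.327. These ratios do not depend on the scaling between libraries. The pairs were chosen after their values were seen, and no test was made.

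**Figure D2:**
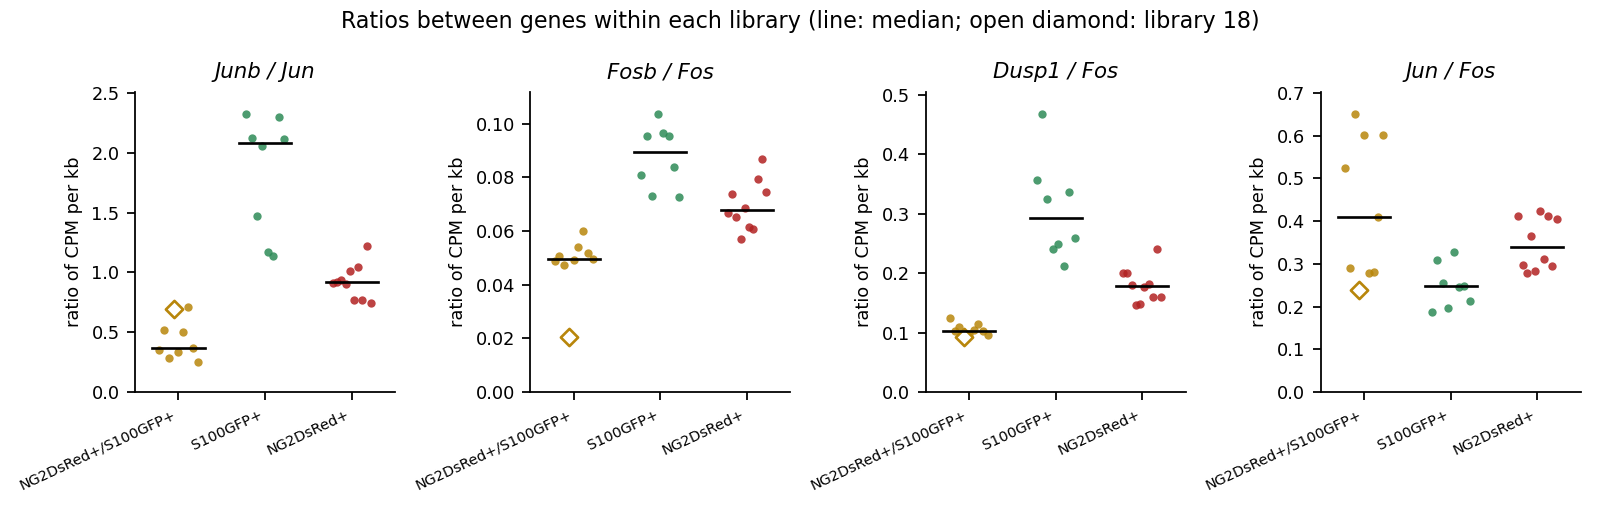
Ratio of CPM per kb of exon between pairs of the genes in each library (y axes, linear from 0), by cell type, with the median as a line and library 18 as an open diamond. Junb to Jun has medians of 0.368, 2.09 and 0.917 in NG2DsRed+/S100GFP+, S100GFP+ and NG2DsRed+ cells, and Dusp1 to Fos is below 0.125 in each double-labeled library, under all others.

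Atf3, a stress-induced ATF family factor that pairs with JUN proteins and that Schwann cells and neurons raise after nerve injury, was the gene with the lowest adjusted p. It was at 134, 251 and 334 CPM in PSCs, at 446, 528 and 768 in S100GFP+ cells and at 261, 401 and 649 in NG2DsRed+ cells. Every PSC library was below every S100GFP+ library, and all 9 were below the NG2DsRed+ median, with 5 below the lowest NG2DsRed+ library. Atf3 was 2.48-fold lower than in S100GFP+ cells (log2 fold change −1.31, SE 0.20, edgeR adjusted p = 3.15e-06) and 1.90-fold lower than in NG2DsRed+ cells (−0.93, SE 0.19, edgeR adjusted p = 0.000215). S100GFP+ minus NG2DsRed+ cells gave 0.39 (SE 0.19, edgeR adjusted p = 0.132). Library 18, at 264 CPM, lay within the range of the other PSC libraries.

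Dusp1 encodes a phosphatase that inactivates MAP kinases and thereby limits the induction of the other genes. It showed 186, 363 and 1046 CPM in PSCs, 805, 1049 and 1423 in S100GFP+ cells and 614, 904 and 947 in NG2DsRed+ cells. The 8 PSC libraries other than library 18 ended at 446 CPM, below every library of both other sorts, while library 18 exceeded every NG2DsRed+ library. PSCs had 2.56-fold less than S100GFP+ cells (log2 fold change −1.36, SE 0.24, edgeR adjusted p = 2.13e-05), the lowest fold change of the 10 genes in this comparison, and 1.96-fold less than NG2DsRed+ cells (−0.97, SE 0.22, edgeR adjusted p = 0.000753). Without library 18 the values were −1.61 and −1.19. S100GFP+ minus NG2DsRed+ cells gave 0.39 (SE 0.23, edgeR adjusted p = 0.207), and 0.42 (SE 0.16, adjusted p = 0.0408) without library 18. Ergic1, on the opposite strand with exons that overlap the Dusp1 gene, changed in the same direction (log2 fold change −1.29 and −0.77, edgeR adjusted p = 3.52e-08 and 7e-05) from a far lower level of 19.1 to 106 CPM, and its part in the Dusp1 difference was not tested.

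Klf6, a zinc finger factor raised in injured tissue, was high in S100GFP+ cells. Its lowest, median and highest CPM were 272, 465 and 1067 in PSCs, 629, 845 and 1104 in S100GFP+ cells and 424, 531 and 731 in NG2DsRed+ cells. Of 9 PSC libraries 7 lay below the lowest S100GFP+ library, and 6 of 8 S100GFP+ libraries lay above the highest NG2DsRed+ library. The log2 fold change was −0.67 (SE 0.20, edgeR adjusted p = 0.00631) for PSCs minus S100GFP+ cells and 0.65 (SE 0.19, adjusted p = 0.00909) for S100GFP+ minus NG2DsRed+ cells. Both calls were lost when libraries were scaled by their totals without the 3 dominant genes (−0.36 with edgeR adjusted p = 0.154, and 0.47 with adjusted p = 0.076). PSCs minus NG2DsRed+ cells gave −0.02 (SE 0.19, edgeR adjusted p = 0.944), a sign that turns under several settings.

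Nr4a1 encodes an orphan nuclear receptor, and its level was highest in NG2DsRed+ cells. It was at 180, 310.1 and 692 CPM in PSCs, at 190.1, 247 and 339 in S100GFP+ cells and at 342, 616 and 726 in NG2DsRed+ cells. S100GFP+ and NG2DsRed+ ranges did not overlap, as was so for 4.38% of all tested genes in that direction, and 8 of 9 PSC libraries lay below the NG2DsRed+ median. S100GFP+ cells had 2.16-fold less than NG2DsRed+ cells (log2 fold change −1.11, SE 0.23, edgeR adjusted p = 0.00031), and PSCs had 1.70-fold less (−0.76, SE 0.22, edgeR adjusted p = 0.00527). PSCs minus S100GFP+ cells gave 0.35 (SE 0.23, edgeR adjusted p = 0.223), which passed the threshold with library totals without the 3 dominant genes (0.66, adjusted p = 0.0276) and with their share as a term (0.63, adjusted p = 0.00713), and not with DESeq2's size factors.

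Ier2, a short-lived nuclear regulator, followed the same order. Its lowest, median and highest CPM were 219, 318 and 615 in PSCs, 213, 296 and 348 in S100GFP+ cells and 319, 487 and 558 in NG2DsRed+ cells, and the ranges overlap in each comparison, with library 18 the highest of all. It was 1.61-fold lower in S100GFP+ than in NG2DsRed+ cells (log2 fold change −0.68, SE 0.17, edgeR adjusted p = 0.00268). Its difference between PSCs and NG2DsRed+ cells was small (−0.43, SE 0.17, edgeR adjusted p = 0.0388) and fell short of the threshold in most left-out-library fits, with values from −0.50 without library 18 to −0.30 without library 12. PSCs minus S100GFP+ cells gave 0.26 (SE 0.18, edgeR adjusted p = 0.241).

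Egr1, the zinc finger factor most used as a readout of recent activation, had 825, 1327 and 2317 CPM in PSCs, 1193, 1428 and 2069 in S100GFP+ cells and 1519.9, 1758 and 2801 in NG2DsRed+ cells. All ranges overlap, and 6 of 9 PSC libraries lay below the lowest NG2DsRed+ library. The log2 fold change against NG2DsRed+ cells was −0.49 (SE 0.18, edgeR adjusted p = 0.0307). This call was lost without any one of several libraries, with values from −0.55 without library 18 to −0.36 without library 12, for which the edgeR adjusted p was 0.0916. PSCs minus S100GFP+ cells gave −0.16 (SE 0.19, edgeR adjusted p = 0.523) and S100GFP+ minus NG2DsRed+ cells −0.33 (SE 0.19, adjusted p = 0.193), the latter past the threshold without S100GFP+ libraries 14, 17 and 22 (−0.54, SE 0.21, edgeR adjusted p = 0.0419).

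**Figure D3:**
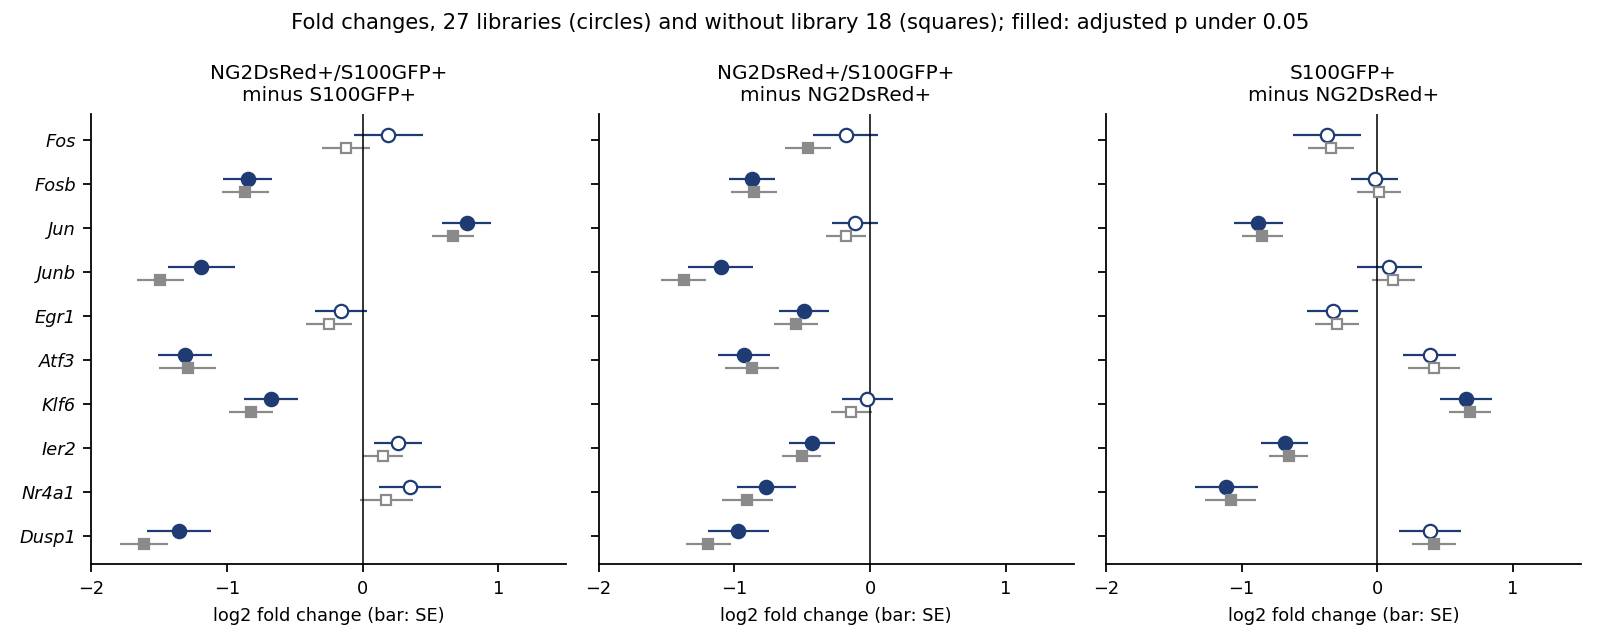
Log2 fold change (x axis) of each of the 10 genes in the 3 comparisons, from edgeR on 27 libraries (circles) and without library 18 (squares), with bars of 1 SE and filled symbols for an adjusted p under 0.05. In both fits shown, Jun is the one gene to the right of 0 and past the threshold in a double-labeled comparison. Ier2 and Nr4a1 join it with library totals without the 3 dominant genes, and Nr4a1 also with the share of those genes as a term. Fos against NG2DsRed+ cells passes in the fit without library 18 (−0.46) and not in the fit with it.

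All 10 genes were nevertheless among the more abundant of the transcriptome. By mean CPM per kb, Fos was at 1245 in PSCs, 1093 in S100GFP+ and 1411 in NG2DsRed+ cells, which put it at ranks 26, 42 and 22 of the 15330 tested genes. The lowest rank of any of the 10 genes in a cell type was 687, for Fosb in PSCs at 52.9 CPM per kb. In PSCs the order by mean CPM per kb was Fos, Jun, Egr1, Ier2, Junb, Dusp1, Klf6, Atf3, Nr4a1 and Fosb, and each gap between neighbours was within the larger of their SDs. These SDs are between libraries and include library 18. Compared within each library, Fos exceeded Jun, Junb exceeded Dusp1 and Nr4a1 exceeded Fosb in 9 of 9 PSC libraries. The other neighbours kept their order in 4 to 8 of 9. In NG2DsRed+ cells Jun (488 CPM per kb) also stood next to Fos, and only the gaps from Fos to Jun, from Egr1 to Ier2 and from Klf6 to Fosb exceeded the larger SD. In S100GFP+ cells Junb (473 CPM per kb) took the second place and Jun (266) the fifth, with gaps beyond the larger SD from Fos to Junb, Junb to Egr1, Atf3 to Klf6, Ier2 to Fosb and Fosb to Nr4a1. The smallest count behind any of these values was 926, for Atf3 in PSC library 23, and the largest 45606, for Fos in PSC library 18.

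As a sum, the 10 genes took 4466 to 18306 CPM in PSCs, with a median of 7296, against 8708 to 10545 with a median of 9585 in S100GFP+ cells and 9146 to 14673 with a median of 10605 in NG2DsRed+ cells. The spread was widest in PSCs, where library 12 was the lowest for 8 of the genes and library 18 the highest for 8. Library 18 was also the highest PSC library for muscle markers (1217 CPM over 8 genes, against a median of 311) and for macrophage and leukocyte markers (574 CPM over 7 genes, against a median of 135). Their part in its values was not tested. Without library 18 the SD of Fos over PSC libraries fell from 1996 to 658 CPM.

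How the genes varied together among libraries of one cell type was examined pair by pair. Of the 45 pairs of genes, 21 had a Pearson correlation of log2 CPM past the threshold over the 9 PSC libraries (exact permutation test, two-sided, Benjamini-Hochberg over 135 pairs in 3 cell types), 17 of them by Spearman's rho as well, with a median r of 0.80. Over the 10 NG2DsRed+ libraries 11 pairs passed, 7 by both measures, with a median r of 0.65. Library 18 carried part of this in PSCs, since 10 pairs (5 by both) passed without it, at a median r of 0.57. The 2 values of a point share the scaling and the quality of their library, whose part in these correlations was not tested. PSC libraries 4, 12, 20 and 36 had 3.64% to 9.66% of their counts on Lars2, Gm23935 and Gm15564, the others 17.8% to 36.6%. The former were also the lowest for Fos (1197 to 2069 CPM, the next 2503) and for Fosb (150.0 to 268 CPM, the next 344). Each r in PSCs pools both sets, and the part of this split was not tested.

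Fos and Dusp1 were the closest pair in PSCs, with r = 0.99 and rho = 0.97 (exact permutation adjusted p = 0.00372 and 0.0107) and r = 0.93 without the 2 libraries farthest from the median of Fos. Without library 18 the values were r = 0.96 and rho = 0.95 (exact permutation adjusted p = 0.0112 and 0.0272). Fos and Fosb reached r = 0.80 with library 18 and r = 0.99 without it (exact permutation adjusted p = 0.0435 and 0.0112), library 18 being far above the others for Fos and within the range of the others for Fosb (433 CPM, the highest being 438). Jun stood outside this group: without library 18 its r with the other genes ran from −0.61 to 0.56 in PSCs. Atf3 and Ier2 did so too, with r from −0.10 to 0.62 and from 0.16 to 0.62 without library 18. No pair with Jun, Atf3 or Ier2 passed the threshold there. In NG2DsRed+ cells Jun varied with Ier2 (r = 0.86, rho = 0.89, permutation adjusted p = 0.00709 and 0.0148), and the closest pair by r was Nr4a1 and Dusp1 (r = 0.94, rho = 0.72, permutation adjusted p = 0.0101 and 0.0813). S100GFP+ libraries 14, 17 and 22 had more genes detected than the other 5. Either set is too small for a test within it, so that no pooled r is given for the S100GFP+ libraries. Their pooled pairs entered the adjustment, and 2 of 45 passed by Pearson's r, 1 of them by rho as well, while 22 of 45 had an r above 0.

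**Figure D4:**
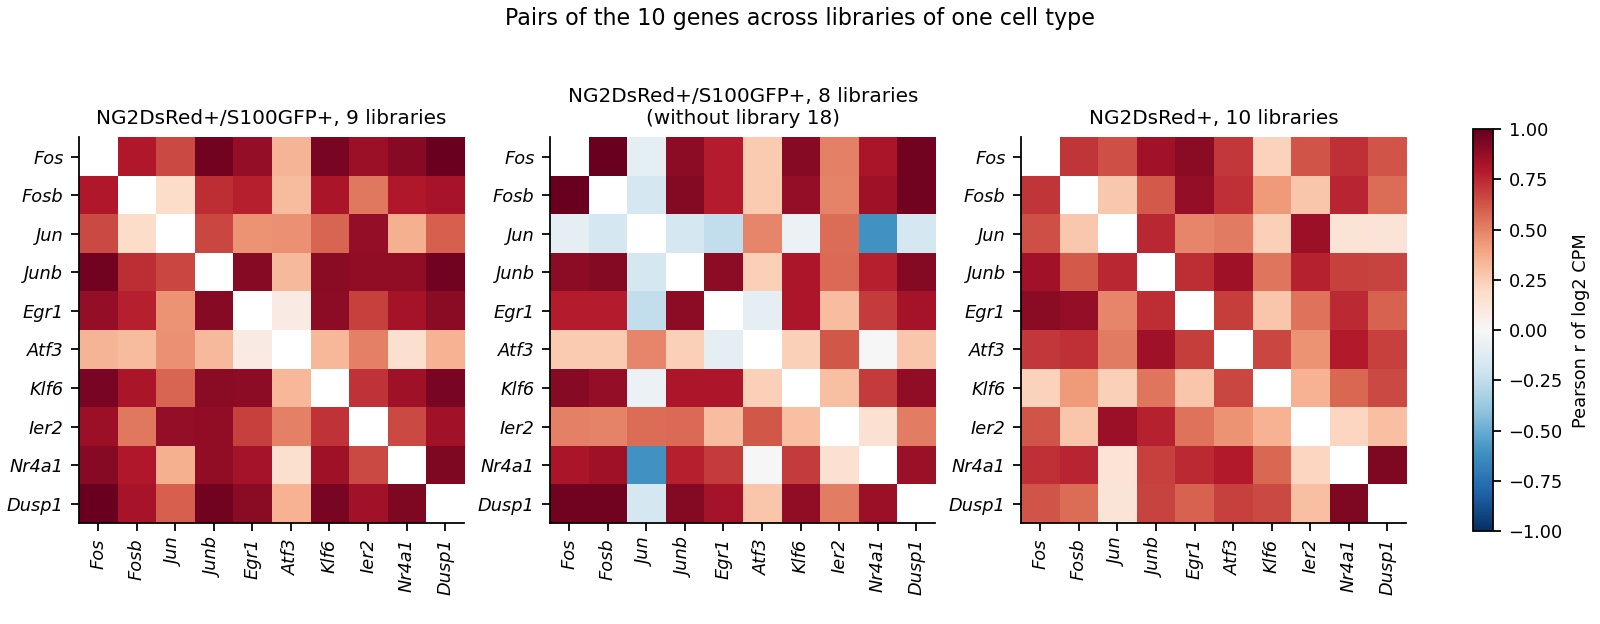
Pearson r of log2 CPM (colour scale, −1 to 1) for each of the 45 pairs of the 10 genes over 9 NG2DsRed+/S100GFP+ libraries, over 8 of them without library 18, and over 10 NG2DsRed+ libraries, with the diagonal left blank. Jun turns from positive to near or below 0 with most genes once library 18 is left out, and the r of Atf3 is at most 0.51 with library 18 and at most 0.62 without it, both with Ier2.

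Over all 27 libraries, the genes whose deviations from the cell type means were most like the mean deviation of the 10 genes were Ppp1r15a (Pearson r = 0.91), Maff (0.87), Mafk (0.86), Gm12226 (0.86), Rsu1 (0.85), Dnajb1 (0.84), Ciz1 (0.84), Ppm1m (0.83), Sft2d1 (0.83) and Lmbrd1 (0.83), out of 15320 other tested genes. Without library 18 the leading genes were Zfp36 (r = 0.87), Btg2 (0.83), Ppp1r15a (0.81), Socs3 (0.81), Bhlhe40 (0.78) and Csrnp1 (0.78), and Ppp1r15a, Maff and Mafk stayed among the first 10. Zfp36 encodes an RNA-binding protein that speeds the decay of short-lived transcripts, and Ppp1r15a a subunit that restores translation after stress.

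Genes of the same families and pathways were taken as further lists, whose counts stand against the 24.1% lower and 22.9% higher of all tested genes for PSCs minus S100GFP+ cells and the 23.1% and 20.9% for PSCs minus NG2DsRed+ cells. Of 29 tested among 30 other immediate early genes, 23 were lower in PSCs than in S100GFP+ cells and 22 lower than in NG2DsRed+ cells, while 2 and 1 were higher, with median log2 fold changes of −1.16 and −1.22. Ptgs2, the inducible cyclooxygenase, was at 1.37 CPM in PSCs, 246 in S100GFP+ cells and 9.99 in NG2DsRed+ cells (log2 fold change −7.48 and −2.86, edgeR adjusted p = 9.74e-14 and 5.25e-07). Nfkbia, the inhibitor of NF-κB, was at 176, 1147 and 478 CPM (−2.70 and −1.44, edgeR adjusted p = 3.41e-12 and 1.89e-07), and Ier5 (−2.70 and −1.53) and Cebpb (−2.68 and −2.46) were lower against both sorts as well. Exceptions were Ccn2 and Arc. Ccn2, a target of the YAP and SRF pathways, was higher in PSCs than in both (422 CPM against 125 and 131, log2 fold change 1.76 and 1.69, edgeR adjusted p = 2.63e-05 and 1.73e-05). Arc was higher than in S100GFP+ cells only (edgeR adjusted p = 0.0375), and its wide PSC range of 8.00 to 75.5 CPM overlapped their 11.4 to 15.8 CPM. Between the single-labeled sorts 8 of the 29 were higher in S100GFP+ cells and 6 lower, with a median of −0.07. Of all tested genes 18.1% were higher and 15.2% lower in that comparison.

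Partners of AP-1 and the small Maf factors showed the same direction. Of 9 tested genes, 7 were lower in PSCs than in S100GFP+ cells and none higher, and 5 were lower and 1 (Mafg) higher than in NG2DsRed+ cells. Fosl2 was at 59.1 CPM in PSCs against 267 and 282 in the other sorts (log2 fold change −2.18 and −2.25, edgeR adjusted p = 4.74e-11 and 1.61e-11), and Fosl1 at 1.54 against 13.6 and 3.68 CPM. Batf (0.176 CPM in PSCs, 28.7 in S100GFP+ cells) and Batf3 (1.27 and 27.5 CPM) are AP-1 factors of immune cells, and the 7 macrophage and leukocyte markers were 7 of 7 higher in S100GFP+ cells as well. Between the single-labeled sorts 5 were higher in S100GFP+ cells (Fosl1, Batf, Batf3, Jdp2 and Maff) and none lower, with 18.1% of all tested genes higher and 15.2% lower.

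EGR, NR4A and KLF relatives and the dual specificity phosphatases were mixed. Of 9 tested relatives, Egr3, Klf5 and Klf9 were higher in PSCs than in S100GFP+ cells and Nr4a3, Klf2 and Klf4 lower, and against NG2DsRed+ cells Egr3 was higher and Nr4a3, Klf2, Klf4 and Klf5 lower. Egr3, itself induced by growth factor signals, was at 27.5 to 102 CPM in PSCs against 14.5 to 28.4 in S100GFP+ and 15.4 to 42.4 in NG2DsRed+ cells (log2 fold change 1.85 and 1.41, edgeR adjusted p = 7.38e-08 and 1.85e-06). Nr4a3 went opposite, at 3.50 to 18.5 CPM against 64.3 to 324 and 53.0 to 157 (−3.44 and −2.96, edgeR adjusted p = 3.52e-10 and 4.08e-09). Of 8 phosphatases, Dusp2, Dusp5, Dusp10 and Dusp14 had less RNA in PSCs than in either single-labeled sort. Dusp6, a phosphatase of MAP kinases induced by growth factor signals, was instead higher than in both, at 170 to 360 CPM against 27.2 to 100.04 and 67.2 to 142 (log2 fold change 2.43 and 1.28, edgeR adjusted p = 1.7e-10 and 3.1e-06), as were Dusp4 against S100GFP+ cells (2.62) and Dusp16 against NG2DsRed+ cells (0.62). Egr3 and Dusp6 thus differed in the direction opposite to Atf3, Junb and Dusp1.

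**Figure D5:**
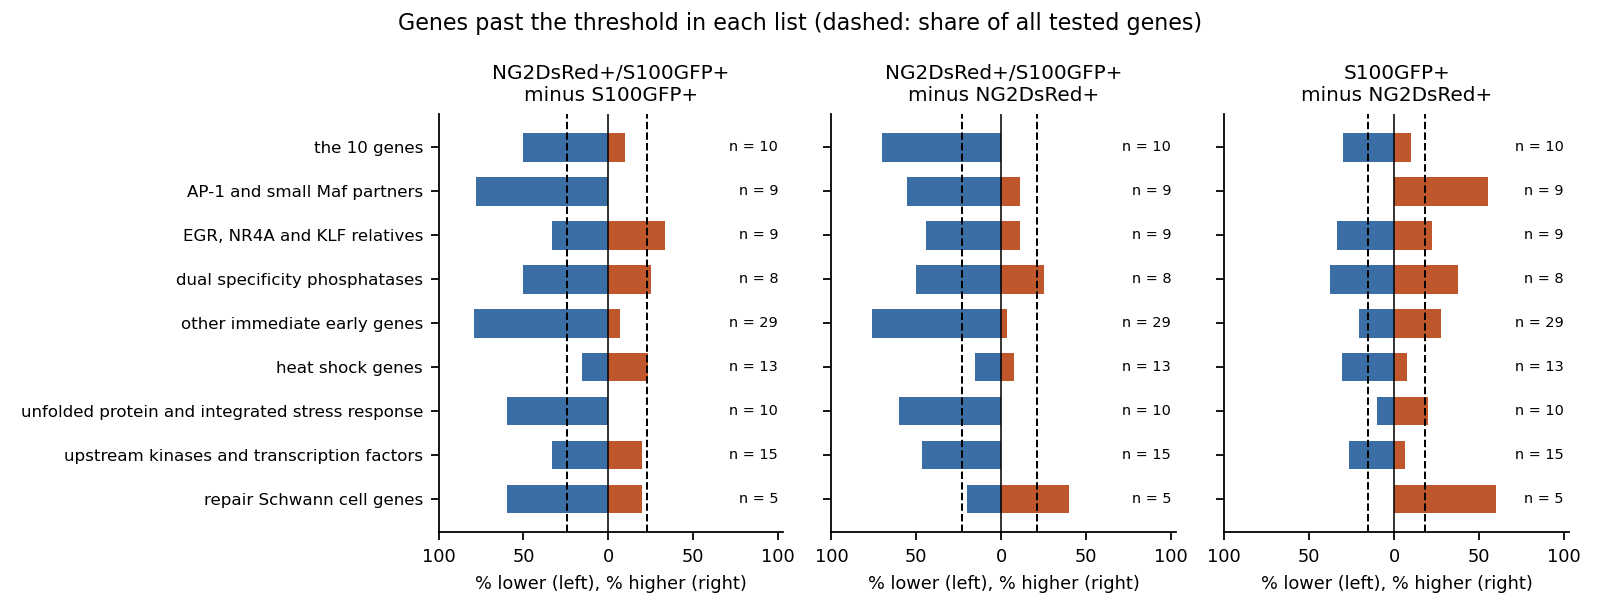
Percent of the tested genes of each list that were lower (blue, to the left) or higher (orange, to the right) in the first-named cell type, with the number tested as n and dashed lines at the share of all tested genes in that direction. Of 29 other immediate early genes 23 and 22 were lower in double-labeled cells, while most of the 13 heat shock genes passed in neither direction.

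Heat shock genes, another class induced by dissociation, did not share the pattern. Of 13, 3 were higher in PSCs than in S100GFP+ cells (Hspa1a, Hspa1b and Hspe1) and 2 lower (Hspa8 and Hsp90aa1), and against NG2DsRed+ cells 1 was higher (Hspe1) and 2 lower (Hspa8 and Hspb1), with median log2 fold changes of 0.08 and −0.03. The inducible HSP70 genes Hspa1a and Hspa1b, near-identical copies whose counts are uncertain one by one, had mean CPM of 529 and 645 in PSCs and 539 and 653 in NG2DsRed+ cells, above the 244 and 309 of S100GFP+ cells. In the unfolded protein and integrated stress response, 6 of 10 genes were lower in PSCs than in S100GFP+ cells (Atf4, Xbp1, Hspa5, Herpud1, Asns and Sesn2) and 6 lower than in NG2DsRed+ cells (Atf4, Trib3, Chac1, Asns, Sesn2 and Ddit4). Ddit3, the stress factor CHOP, was at 33.3, 32.8 and 32.5 CPM in the 3 sorts (edgeR adjusted p = 0.962 and 0.925).

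Among 15 kinases and factors upstream of the immediate early genes, 7 were lower in PSCs than in NG2DsRed+ cells and none higher, with Srf, Mrtfa, Mrtfb and Crem among the lower. Against S100GFP+ cells 5 were lower (Mrtfa, Mrtfb, Crem, Mapk14 and Map2k1) and 3 higher (Srf, Creb1 and Mapk3), shares not far from the 24.1% and 22.9% of all tested genes. Mrtfa, the actin-regulated coactivator of the serum response factor, was at 7.26 CPM in PSCs against 31.8 and 20.6 (log2 fold change −2.13 and −1.51, edgeR adjusted p = 6.11e-07 and 6.05e-05). Of 10 genes of repair Schwann cells, many of them JUN targets, 5 had enough counts to be tested. Sox2 was higher in PSCs than in both sorts (30.4 CPM against 2.21 and 0.34), and Bdnf was lower than in both (1.42 against 6.63 and 8.30 CPM). Gap43 was lower than in S100GFP+ cells and higher than in NG2DsRed+ cells (5.38 against 57.1 and 0.714 CPM). Its PSC values spread from 0.209 to 39.9 CPM (SD 13.0) and overlapped the 0.154 to 1.67 CPM of NG2DsRed+ cells. Library 18 had the highest PSC sum over the 10 listed genes, at 111 CPM against a median of 40.4. Whether Gap43 stays higher than in NG2DsRed+ cells without library 18 was not examined. Shh had no count in any PSC library, and Gdnf, Artn, Olig1 and Ucn2 were also too low to test.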

How the data were processed

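RNA of cells sorted by FACS was isolated with a PicoPure kit and sequenced after SMART-Seq v4 amplification. Trimming by the authors used ea-utils and Btrim, alignment HISAT2 and counting HTSeq. The deposited values are raw whole-number counts per gene. GRCm38 is named in the submitters' processing notes. The versions, annotation and strand setting are not given in these sources, which leaves overlapping genes and near-identical copies uncertain. Library numbers matched 27 of the 36 labelled libraries to a column, and the remaining 9 were not analysed here. Libraries held 5221655 to 9592875 counts. No columns were identical, and pairs within a cell type differed beyond sampling noise (lowest chi-square per degree of freedom 8.20). Counts may include PCR copies of a molecule.

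Tests used edgeR 4.0.16 (R 4.3.3) with TMM factors, a quasi-likelihood fit to all 3 cell types of the 15330 genes kept by filterByExpr at a minimum count of 10, and Benjamini-Hochberg adjustment over these genes at 0.05. The study's methods use DESeq2 (1.42.0 here), kept as an alternative beside limma-voom (limma 3.58.1). The fits were run on simulated data in which a small share of the genes changed, and only in PSCs. Far more genes were called in the real libraries, so that the simulation does not bear on the scaling between them. CPM are TMM-scaled counts per 1000000, and log2 CPM used a prior count of 2. CPM per kb divides by the union of exons in GENCODE M21, which holds 52489 of the 52636 identifiers. Correlations had exact permutation tests under 10 libraries and 100000 permutations otherwise, two-sided. Promoters were RefSeq's on GRCm38.p6.

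The genes, the lists and the rules were chosen with earlier results of these data known. Genes named are the 10 genes, Cspg4 and S100b, up to 4 genes of each list past the threshold with the largest log2 fold change, the 10 genes most like the mean of the 10 genes, and overlapping genes. Ccn2, Dusp6, the similar genes without library 18 and list genes named beside counts were chosen after their values were seen.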

Additional observations from a re-analysis of the deposited data

Results flagged for a closer look

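Library 18 of the NG2DsRed+/S100GFP+ cells lay far above the other 8 libraries of its group for 6 of the 10 genes, with a gap to the next library above Dixon's critical value. It held 7991 CPM of Fos where the next library had 3075, 2587 of Jun (next 1559), 1293 of Junb (next 531), 615 of Ier2 (next 360), 692 of Nr4a1 (next 402) and 1046 of Dusp1 (next 446). These were the only flags among the 30 combinations of gene and cell type tested, in which chance alone flags about 1 in 20. All 6 flags are from the same library, and the genes varied together among PSC libraries. The flags are therefore not independent, and their number cannot be set against that rate. The same library had the fewest genes detected and the highest muscle and macrophage marker sums of its group. Their part in these values was not tested.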

How the results depend on the processing

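Of the 30 log2 fold changes of the 10 genes, 17 passed the threshold, and 13 of these kept direction and call in all 8 alternatives and with each of 27 libraries left out. The others were Egr1 and Ier2 for PSCs minus NG2DsRed+ cells and Klf6 in both comparisons with S100GFP+ cells, which kept their sign. The cause of these and the following changes was not tested.

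Values near 0 changed sign. For PSCs minus NG2DsRed+ cells, Klf6 was 0.016 with DESeq2, 0.0166 with its size factors in edgeR, 0.11 with library totals without Lars2, Gm23935 and Gm15564, 0.11 with the share of those 3 genes as a term and 0.022 with only the compared cell types, and Fos was 0.014 with the share as a term. For PSCs minus S100GFP+ cells, Egr1 was 0.15 with the totals, 0.074 with the share as a term and 0.075 without S100GFP+ libraries 14, 17 and 22, and Fos was −0.22 with limma-voom. For S100GFP+ minus NG2DsRed+ cells, Fosb was 0.0397 with DESeq2 and 0.0404 with its size factors, and Junb −0.10 with the totals. Leaving out single libraries gave −0.14 to 0.12 for Klf6 (PSCs minus NG2DsRed+), −0.086 to 0.031 for Fosb (S100GFP+ minus NG2DsRed+) and −0.12 to 0.30 for Fos (PSCs minus S100GFP+).

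Counts of the 10 genes called were 6, 7 and 4 in the 3 comparisons. With limma-voom the last was 7, with Fos, Egr1 and Atf3 added, where 7026 of 15330 tested genes were called. Left-out libraries gave 6 in each fit, 5 to 8 and 4 to 5. Correlated pairs numbered 34 over the 3 cell types (21, 2 pooled S100GFP+ and 11), and 18 (without library 18) to 40 with a library left out. With no filter on low counts 14328 genes were called for PSCs minus S100GFP+ cells (7198 with it) and 9789 for S100GFP+ minus NG2DsRed+ cells (5099 with it). The share of called genes that were higher was 48.8% for PSCs minus S100GFP+ cells, 65.8% with the totals and 25.6% with no filter, and 54.3% for S100GFP+ minus NG2DsRed+ cells, 38.2%, 76.8% and 64.8% (the last with DESeq2). The totals moved the median of all genes to 0.34, 0.13 and −0.21 in the 3 comparisons. No paired analysis was made, because the labels number each library separately and do not name its mouse. Whether libraries of different cell types came from the same mouse is therefore not known here, and the tests treat all libraries as independent. Depth did not limit the 10 genes, each with at least 926 counts.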
